A study of Mus musculus with 6 samples.

Results

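Nuclear receptors are transcription factors, many of which are switched on by small lipid-soluble ligands such as steroids, retinoids, oxysterols, fatty acids and thyroid hormone. The family examined here held 46 genes, chosen by gene symbol as members of the family, among 26286 genes in the count tables, and each of the 46 symbols was found once. The cells were regulatory T cells (Treg), CD4+ T cells that restrain immune responses, sorted as CD4+ CD25high cells from spleens and lymph nodes that had been pooled. All animals were C57BL/6 mice with a Blimp1/GFP reporter, a green fluorescent protein (GFP) that marks cells expressing Blimp-1, a repressor encoded by Prdm1. Every sample title carries the prefix BlimpHet, so the GFP- cells came from reporter animals too, and the age of the mice is not given in the sources used here. Each population, GFP+ and GFP-, had 3 libraries, 1 made by poly(A) selection (number 19 for GFP+, 20 for GFP-) and 2 by an amplification protocol devised for single cells but used here on sorted populations (1 and 4 for GFP+, 2 and 5 for GFP-). The sample titles give these numbers, and libraries are called by them below.

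A nuclear receptor usually binds DNA through a zinc-finger domain, often as a pair with a retinoid X receptor (RXR), and recruits corepressors or coactivators depending on its ligand. In T cells, retinoic acid receptors are known for their part in gut homing and in Treg differentiation, the glucocorticoid receptor for its immunosuppressive action, and the Nr4a receptors as early products of T cell receptor signalling. Peroxisome proliferator-activated receptor gamma, the protein of Pparg, is known from adipocytes, macrophages and the Treg of visceral fat. In macrophages it is found beside the liver X receptor alpha (Nr1h3), a sensor of oxysterols.

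The libraries held between 15224051 and 28354321 counts. Counts of the 46 receptor genes made up 0.162% and 0.212% of the poly(A) libraries and between 0.0154% and 0.0284% of the single-cell protocol libraries. Foxp3, the defining transcription factor of Treg, stood between 1097 and 2624 CPM (read counts scaled to a common library size with the TMM factors of edgeR) in the 6 libraries, and Cd4 between 312 and 655 CPM. Of 24 macrophage genes, 19 could be tested, and 18 of these were higher in GFP+ Treg with a median log2 fold change of 5.63. Their summed level was between 68.4 and 102 CPM in the GFP- libraries and between 1595 and 2390 CPM in the GFP+ libraries, and no gene of the list was at 0 in all GFP- libraries. In bulk libraries such as these, more cells of a type and more RNA per cell cannot be told apart. The single-cell protocol tables held no counts for chromosomes 8 and 9, and on chromosome 3 for 2 of 1092 genes only. Rora, Pgr and Nr2e3 (chromosome 9), Nr2f6 and Nr3c2 (chromosome 8) therefore had values in the poly(A) pair alone.

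Of the 46 receptor genes, 21 were expressed, here meaning at least 1 CPM in every library of at least 1 population, or in the poly(A) libraries where the others held no counts. Each subfamily of ligand-sensing receptors had an expressed member: Pparg among the PPAR genes, Rara and Rarg among the retinoic acid receptors, Rxra and Rxrb among the RXR genes, Nr1h2 and Nr1h3 among the oxysterol, bile acid and xenobiotic sensors, Vdr, Thra and Thrb for vitamin D and thyroid hormone, and Nr3c1 and Nr3c2 among the steroid receptors. The expressed orphan and clock receptors were Rora, Nr1d1, Nr1d2, Esrra, Nr4a1, Nr4a2, Nr2c1, Nr2c2 and Nr2f6. Pparg, Vdr and Nr4a2 met the rule in GFP+ Treg alone, and Thrb in GFP- Treg alone. Ppard did not meet it, although it had 34.3 CPM in GFP- library 20 and 32.5 CPM in GFP+ library 19. It fell short at 0.725 CPM in GFP- library 2 and 0.573 CPM in GFP+ library 1. None of the 9 receptors of liver, gonad, adrenal and retina grouped together here (Nr5a1, Nr5a2, Nr6a1, Hnf4a, Hnf4g, Nr0b1, Nr0b2, Nr2e1 and Nr2e3) met the rule.

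After the filter on low counts, 21 receptor genes could be tested, 18 of them among the expressed ones. Pparg, with 10, 5 and 3 counts in GFP- libraries 20, 2 and 5, passed this filter only through its GFP+ libraries. A call as lower was therefore hardly open to it. GFP+ Treg had more RNA of 4 of the 21: Pparg (14.3-fold), Nr1h3 (13.5-fold), Rxra (4.04-fold) and Nr1d1 (3.44-fold). Of all 10523 tested genes, 9.81% were called higher. No receptor was called lower, against 3.68% of all tested genes (edgeR quasi-likelihood test with the protocol as covariate, Benjamini-Hochberg adjusted p under 0.05 over all tested genes). At an unadjusted p under 0.05 there were 8 receptors, 7 higher and 1 lower, where all tested genes had shares of 15.3% and 11.5%. DESeq2 called the same 4 receptors higher and Nr2c1 lower, and over all tested genes 11.4% higher and 6.79% lower. The median log2 fold change was 0.15 over the 21 receptors and -0.08 over all tested genes.

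**Figure D1:**
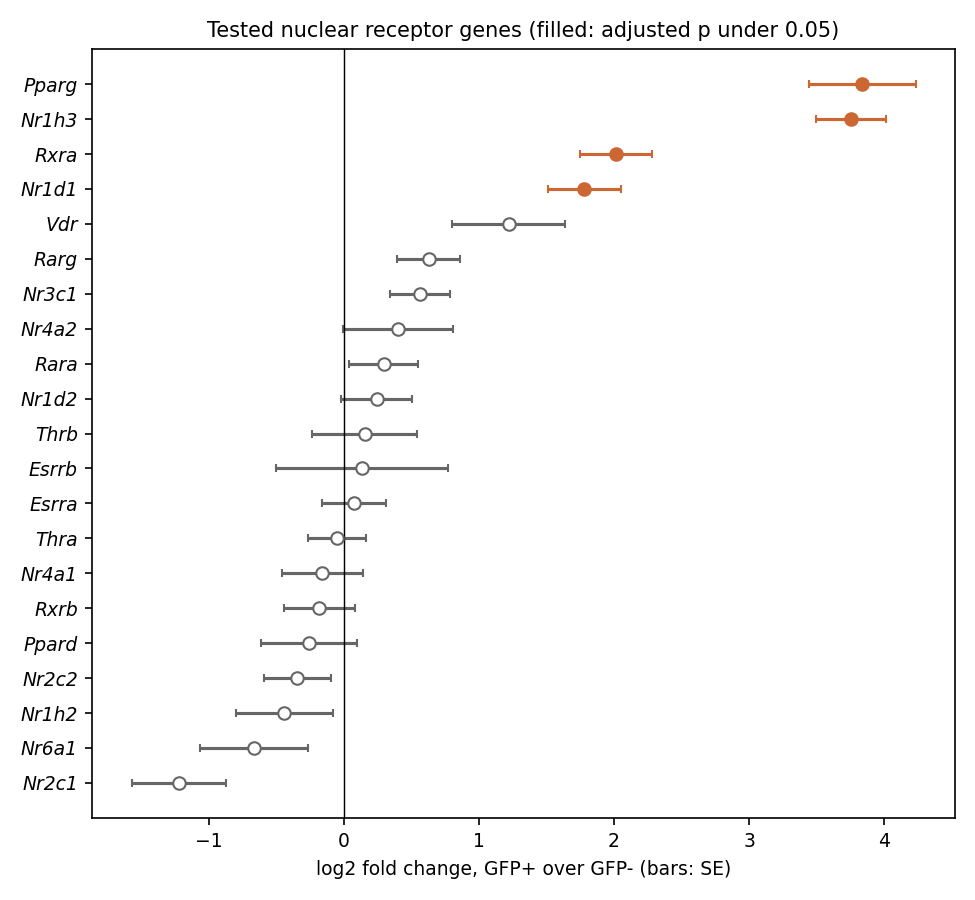
Fitted log2 fold change of GFP+ over GFP- Treg for the 21 tested nuclear receptor genes, with bars for the standard error (3 libraries per population) and filled points for adjusted p under 0.05. Pparg and Nr1h3 lie near 3.8, Rxra and Nr1d1 near 2, and the other 17 genes lie between -1.22 and 1.22.

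The regions before the start sites of the 4 genes that rose together are shown to set their sequences beside their values. Each is 250 bases up to the start site (the most upstream one where RefSeq lists several), 5′ to 3′ on the strand of the gene, from the RefSeq promoter table of build GRCm38.p6, with any match to the motifs searched in capitals.
Pparg (chr6:115360894-115361143, + strand): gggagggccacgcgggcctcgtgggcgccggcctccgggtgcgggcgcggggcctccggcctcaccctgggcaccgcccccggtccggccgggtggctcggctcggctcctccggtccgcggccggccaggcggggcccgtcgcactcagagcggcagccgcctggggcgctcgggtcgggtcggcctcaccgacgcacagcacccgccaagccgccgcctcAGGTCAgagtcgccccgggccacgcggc
Nr1h3 (chr2:91195117-91195366, - strand): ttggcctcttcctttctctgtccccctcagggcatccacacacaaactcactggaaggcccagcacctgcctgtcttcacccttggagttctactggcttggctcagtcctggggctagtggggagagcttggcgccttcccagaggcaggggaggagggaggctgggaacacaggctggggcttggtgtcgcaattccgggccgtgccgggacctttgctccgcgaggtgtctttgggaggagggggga
Rxra (chr2:27676951-27677200, + strand): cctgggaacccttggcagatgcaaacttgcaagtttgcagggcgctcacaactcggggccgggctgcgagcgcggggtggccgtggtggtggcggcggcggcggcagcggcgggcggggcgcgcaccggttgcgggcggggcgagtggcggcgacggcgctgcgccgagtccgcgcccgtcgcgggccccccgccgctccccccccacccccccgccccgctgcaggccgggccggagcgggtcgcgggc
Nr1d1 (chr11:98775378-98775627, - strand): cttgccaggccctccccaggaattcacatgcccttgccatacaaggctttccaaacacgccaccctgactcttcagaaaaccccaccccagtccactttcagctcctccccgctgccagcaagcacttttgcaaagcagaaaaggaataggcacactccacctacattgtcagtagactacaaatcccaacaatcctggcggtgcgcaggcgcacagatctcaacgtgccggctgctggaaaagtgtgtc
The motifs were AGGTCA, a hexamer to which many but not all nuclear receptors bind, and TGANTCA, the AP-1 site bound by factors such as BATF. CACGTG, the E-box of the clock factors, and GAGGAA, a core of the sites of the myeloid factor PU.1, were the others. Each was searched on both strands. The 4 sequences held a single match, an AGGTCA in the Pparg sequence that begins 28 bases before the start site. Start sites of these genes that are not shown held further matches. The other Rxra site held 2 AGGTCA, and 1 other Pparg site held 1 AGGTCA and 1 GAGGAA. The last Pparg site and the other Nr1h3 site held none. Over all 32851 promoters in the table, 14.0% held AGGTCA, 6.75% TGANTCA, 6.02% CACGTG and 23.3% GAGGAA in the same window. Among the 63 start sites listed for 42 of the receptor genes, 11 held AGGTCA, 3 TGANTCA, 5 CACGTG and 9 GAGGAA. Guanine and cytosine made up 82.4% of the Pparg and 81.2% of the Rxra sequence, against 63.2% for Nr1h3, 54.8% for Nr1d1 and a median of 52.4% over all promoters.

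Pparg (Entrez 19016, chromosome 6) had 10, 5 and 3 counts in GFP- libraries 20, 2 and 5, or 0.217, 0.362 and 0.380 CPM. GFP+ libraries 19, 1 and 4 had 224, 45 and 56 counts, or 4.56, 3.68 and 4.06 CPM. The populations did not overlap, and all 3 GFP+ libraries lay close to each other although they came from different protocols. The log2 fold change was 3.84 ± 0.40 (SE, 3 libraries each, edgeR adjusted p = 0.000425). Per gene length it remained one of the scarcer receptors in GFP+ Treg, with 2.30 RPKM (CPM per kilobase of gene length) in GFP+ library 19 against 68.6 RPKM of Nr1h2 there. Its relatives behaved otherwise. Ppara, the fatty acid receptor of liver and muscle, had at most 3 counts in any library. Ppard, the receptor delta found in many tissues, had 34.3 and 32.5 CPM in the poly(A) libraries of GFP- and GFP+ Treg but between 0.573 and 1.65 CPM in the single-cell protocol libraries. Its log2 fold change was -0.25 ± 0.35 (edgeR adjusted p = 0.697), or -0.012 without GFP- library 5 and -0.50 without GFP- library 20.

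Nr1h3 (Entrez 22259, chromosome 2), which encodes the liver X receptor alpha (LXR alpha), stood at 1.30, 1.16 and 1.14 CPM in GFP- libraries 20, 2 and 5 and at 17.5, 15.1 and 16.1 CPM in GFP+ libraries 19, 1 and 4. Both populations were tight across protocols and far apart. Its log2 fold change was 3.75 ± 0.26 (SE, 3 libraries each, edgeR adjusted p = 7.31e-05). Nr1h2, which encodes LXR beta, the form found in most tissues, was the most abundant receptor per gene length in the poly(A) pair, with 74.3 RPKM in GFP- and 68.6 RPKM in GFP+ Treg. In CPM it had 146, 36.9 and 77.6 in GFP- libraries 20, 2 and 5 and 135, 25.0 and 50.04 in GFP+ libraries 19, 1 and 4. The populations overlapped, and the log2 fold change was -0.44 ± 0.36 (edgeR adjusted p = 0.488). It was -0.039 without GFP- library 5 and -0.70 without GFP+ library 4. In the poly(A) pair the LXR alpha transcript was thus at 0.640 RPKM beside 74.3 RPKM of LXR beta in GFP- Treg and at 8.61 RPKM beside 68.6 RPKM in GFP+ Treg. Nr1h4, the bile acid receptor FXR, had 1 count in 1 library, and the xenobiotic receptors Nr1i2 and Nr1i3 stayed at or below 0.580 CPM. Nr1i3 shares 3304 of 4414 exonic bases with Tomm40l on the opposite strand.

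Rxra (Entrez 20181, chromosome 2), the partner of PPAR, LXR, vitamin D and retinoic acid receptors, had 39.8, 8.33 and 14.3 CPM in GFP- libraries 20, 2 and 5. In GFP+ libraries 19, 1 and 4 it had 134, 51.9 and 47.9 CPM. Each GFP+ library exceeded the GFP- libraries of its protocol, although GFP- library 20 lay close to the GFP+ single-cell protocol libraries. The log2 fold change was 2.01 ± 0.27 (SE, 3 libraries each, edgeR adjusted p = 0.00140). Rxrb, the second form, had 99.6, 26.6 and 47.6 CPM in GFP- libraries 20, 2 and 5 and 94.0, 28.7 and 34.2 CPM in GFP+ libraries 19, 1 and 4. These ranges overlapped within the single-cell protocol, and the log2 fold change was -0.18 ± 0.26 (edgeR adjusted p = 0.707, 0.095 on the log2 scale without GFP- library 5). Rxrg, the form of muscle and brain, had at most 20 counts. In the poly(A) pair Rxra went from 7.55 to 25.5 RPKM while Rxrb went from 38.6 to 36.5 RPKM.

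Nr1d1 (Entrez 217166, chromosome 11) encodes REV-ERB alpha, a haem-binding repressor in the circadian clock. It had 10.5, 1.74 and 1.65 CPM in GFP- libraries 20, 2 and 5 and 29.1, 5.89 and 7.83 CPM in GFP+ libraries 19, 1 and 4. Each GFP+ library was above the GFP- libraries of its protocol, while the poly(A) library of GFP- Treg exceeded the single-cell protocol libraries of GFP+ Treg. The log2 fold change was 1.78 ± 0.27 (SE, 3 libraries each, edgeR adjusted p = 0.00276). Exons of Nr1d1 and of Thra on the opposite strand share 263 of 3077 exonic bases of Nr1d1 in GENCODE M21, and whether counting used strand is not stated, so reads there cannot be told apart. Thra, the thyroid hormone receptor alpha, had 26.5, 7.03 and 6.46 CPM in GFP- libraries 20, 2 and 5 and 24.4, 7.04 and 6.38 CPM in GFP+ libraries 19, 1 and 4. Its log2 fold change was -0.05 ± 0.22 (edgeR adjusted p = 0.914, 0.028 on the log2 scale with library totals as the only scaling). Nr1d2, which encodes the paralogue REV-ERB beta, ranged from 7.98 to 15.3 CPM in GFP- and from 13.3 to 17.3 CPM in GFP+ Treg, with a log2 fold change of 0.24 ± 0.26 (edgeR adjusted p = 0.603). That value was 0.040 without GFP- library 5 and 0.46 without GFP- library 2.

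**Figure D2:**
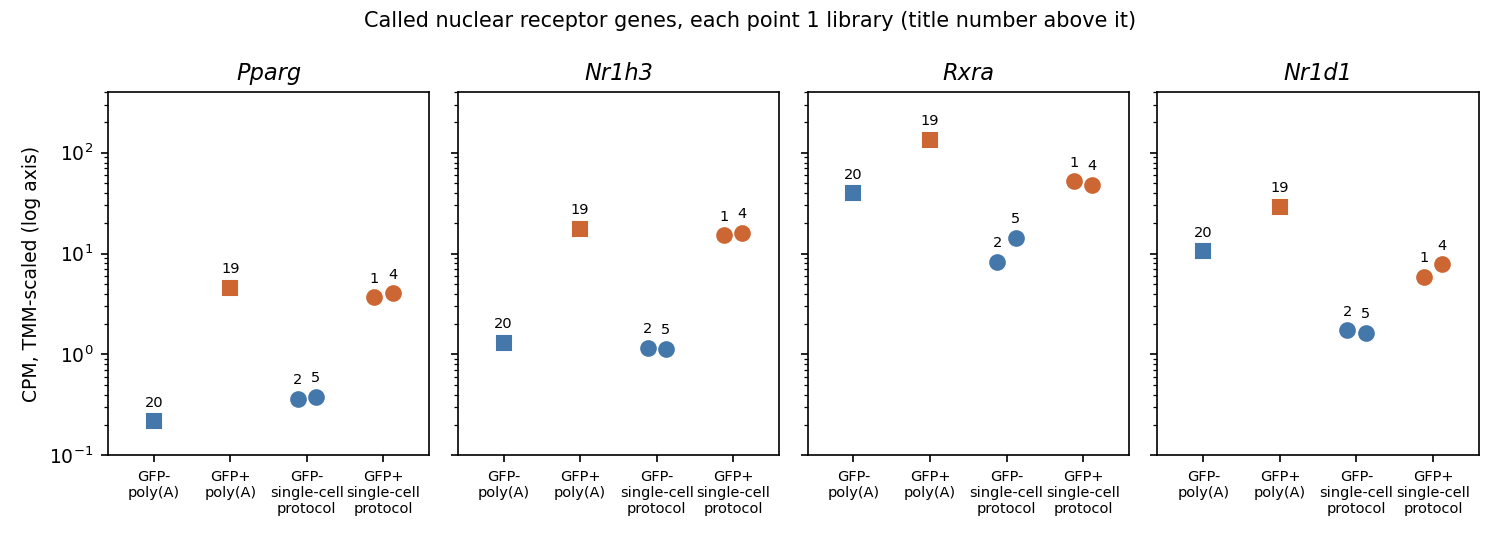
TMM-scaled CPM on a log axis of the 4 called receptor genes, each point being 1 library with its title number, squares for poly(A) and circles for the single-cell protocol, blue for GFP- and orange for GFP+. Pparg and Nr1h3 had similar values in both protocols, while Rxra and Nr1d1 were higher in poly(A) libraries of either population.

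Beside these 4 genes, the summed macrophage markers rose from at most 102 CPM in GFP- to at least 1595 CPM in GFP+ libraries, as given above. Their part in the higher Pparg, Nr1h3, Rxra and Nr1d1 was not tested. Among them were Csf1r, the growth factor receptor of macrophages (log2 fold change 6.32), the transcription factors Spic (5.65) and Spi1 (3.39), and Lyz2, a lysozyme (3.68). Cebpa (1.27 ± 0.39, edgeR adjusted p = 0.0668) was the tested macrophage gene that did not pass. Of 7 tested B cell genes 1 was higher (Blk), of 6 tested plasma cell genes 2 (Irf4 and Sdc1), and of 5 tested CD8 T and natural killer cell genes 1 was higher (Nkg7) and 2 lower (Ncr1 and Cd8a). In the dendritic cell list, 2 of 5 tested genes were higher (Itgax and H2-Ab1) and Ccr7 was lower, and of 3 tested erythroid genes Hba-a1 was higher. Of 12 tested Treg and T cell genes, Ctla4 was higher and Lrrc32 lower.

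Rora, which encodes an orphan receptor that binds the same DNA element as REV-ERB, is on chromosome 9 and was measured in the poly(A) pair alone. It had 303 counts (6.59 CPM) in GFP- library 20 and 1462 counts (29.7 CPM) in GFP+ library 19. The ratio was 4.52, with a 95% interval from 3.99 to 5.13 that covers counting error only. Nr2f6, an orphan receptor known as a brake on T cell activation, had 945 and 2240 counts, a ratio of 2.22 (interval 2.06 to 2.40). Its exons share 1622 of 2983 bases with Ocel1 on the opposite strand. Nr3c2, the mineralocorticoid receptor, had 160 and 95 counts, a ratio of 0.556 (interval 0.427 to 0.721). These are comparisons of 2 libraries without a replicate check. Rorb, a receptor of brain and retina, had at most 4 counts in any library.

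The retinoic acid receptors Rara and Rarg were abundant in the poly(A) libraries and neither passed the test. Rarg had 85.7, 6.59 and 8.10 CPM in GFP- libraries 20, 2 and 5 and 142, 8.998 and 12.7 CPM in GFP+ libraries 19, 1 and 4. Each GFP+ library was above the GFP- libraries of its protocol, with a log2 fold change of 0.63 ± 0.23 (SE, edgeR adjusted p = 0.124). With a block of neighbouring title numbers (19 with 20, 1 with 2, 4 with 5), which no label states to be pairs, the adjusted p was 0.0137. Rara had 125, 6.88 and 10.5 CPM in GFP- libraries 20, 2 and 5 and 163, 12.02 and 8.49 CPM in GFP+ libraries 19, 1 and 4, which overlapped in the single-cell protocol (log2 fold change 0.30 ± 0.26, 0.14 without GFP- library 2 and 0.48 without GFP- library 5). Rarb, itself a well-known target of retinoic acid, had at most 16 counts, and 1793 of its 5265 exonic bases lie in exons of Top2b on the opposite strand.

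Nr3c1, the glucocorticoid receptor, was one of the receptors with similar CPM in both protocols. It had 62.1, 49.1 and 53.2 CPM in GFP- libraries 20, 2 and 5 and 76.8, 73.8 and 92.0 CPM in GFP+ libraries 19, 1 and 4. No GFP+ library was below a GFP- library, yet the difference missed the threshold (log2 fold change 0.57 ± 0.22, edgeR adjusted p = 0.140). With neighbouring title numbers as a block the adjusted p was 0.0246. Vdr, the vitamin D receptor, had 0.362 to 1.52 CPM in GFP- and 1.06 to 2.71 CPM in GFP+ Treg, with a log2 fold change of 1.22 ± 0.42 (edgeR adjusted p = 0.0968). Its adjusted p was 0.0343 with that block and 0.0498 when every gene with at least 1 count was tested. The sex steroid receptors were scarce: Esr1 had at most 68 counts, and Esr2 and Pgr at most 1 count in any library.

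The tested Nr4a receptors, Nr4a1 and Nr4a2, differed between the populations by no more than about their standard error. Nr4a1 (Nur77) had 137, 13.7 and 18.9 CPM in GFP- libraries 20, 2 and 5 and 137, 8.92 and 18.4 CPM in GFP+ libraries 19, 1 and 4 (log2 fold change -0.16 ± 0.30, edgeR adjusted p = 0.781, 0.10 on the log2 scale without GFP+ library 1). Nr4a2 ranged from 0.633 to 4.03 CPM over the 6 libraries (0.40 ± 0.41). Nr4a3 had 860 and 870 counts in the poly(A) libraries of GFP- and GFP+ Treg and 1 count in the 4 single-cell protocol libraries together, although its chromosome, 4, was covered there, so it did not meet the rule for expressed genes and was not tested.

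Nr2c1, the orphan testicular receptor TR2, was the receptor nearest to a call in the other direction. It had 5.80, 4.64 and 3.17 CPM in GFP- libraries 20, 2 and 5 and 3.72, 1.06 and 1.45 CPM in GFP+ libraries 19, 1 and 4. Every GFP+ library lay below the GFP- libraries of its protocol, with a log2 fold change of -1.22 ± 0.35 (SE, edgeR adjusted p = 0.0524). DESeq2 gave an adjusted p = 0.0181, and the range over the 15 alternatives was 0.00647 to 0.806. Its relative Nr2c2 (TR4) had 60.2, 54.6 and 32.2 CPM in GFP- libraries 20, 2 and 5 and 43.2, 38.0 and 33.9 CPM in GFP+ libraries 19, 1 and 4, which overlapped (log2 fold change -0.34 ± 0.25, -0.15 without GFP- library 2 and -0.55 without GFP- library 5). Exons of Nr2c2 share 4590 of 14935 bases with Mrps25 on the opposite strand. Esrra, the estrogen-related receptor of mitochondrial genes, had 48.5, 5.58 and 7.09 CPM in GFP- libraries 20, 2 and 5 and 60.5, 6.71 and 5.22 CPM in GFP+ libraries 19, 1 and 4. Its log2 fold change was 0.07 ± 0.24 and turned to -0.088, -0.082 or -0.095 without GFP- library 20, without GFP+ library 19 or without both. These fits all rest on the single-cell protocol libraries. Thrb, Esrrb and Nr6a1, all at or below 3.27 CPM, had log2 fold changes of 0.15 ± 0.39, 0.14 ± 0.64 and -0.67 ± 0.40.

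Counted by separation, 7 of the 21 tested receptors (33.3%) were higher in each GFP+ library than in each GFP- library of the same protocol, namely the 4 called genes with Rarg, Vdr and Nr3c1, and 1 (4.76%), Nr2c1, was lower. The corresponding shares over all tested genes were 21.3% and 19.3%. Of the 7, Pparg and Vdr passed the filter on low counts only with the help of their GFP+ libraries. In a model with an interaction term no receptor differed between the protocols in its population effect, either after adjustment or at an unadjusted p under 0.05. Over all 10523 genes this test called 0 (0%) with either TMM or DESeq2 size factors and had 24 genes (0.228%) at an unadjusted p under 0.05. Its standard errors for the receptors were between 0.65 and 1.31 on the log2 scale, so differences of that size between protocols were not detectable.

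Receptor levels differed between the protocols. Mean CPM was higher in the poly(A) libraries for 20 of the 21 tested receptors, with a median ratio of 2.14, against 53.3% of all tested genes and a median ratio of 1.10. The ratio was 33.8 for Ppard, 15.2 for Rara, 12.5 for Rarg, 9.16 for Nr4a1 and 8.87 for Esrra, but 1.04 for Nr3c1, 1.12 for Nr1h3 and 1.13 for Pparg. In the single-cell protocol table gene lengths stopped at 3000 bases for all genes but 1, and 25 of the 46 receptor genes exceed this length by the poly(A) table.

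**Figure D3:**
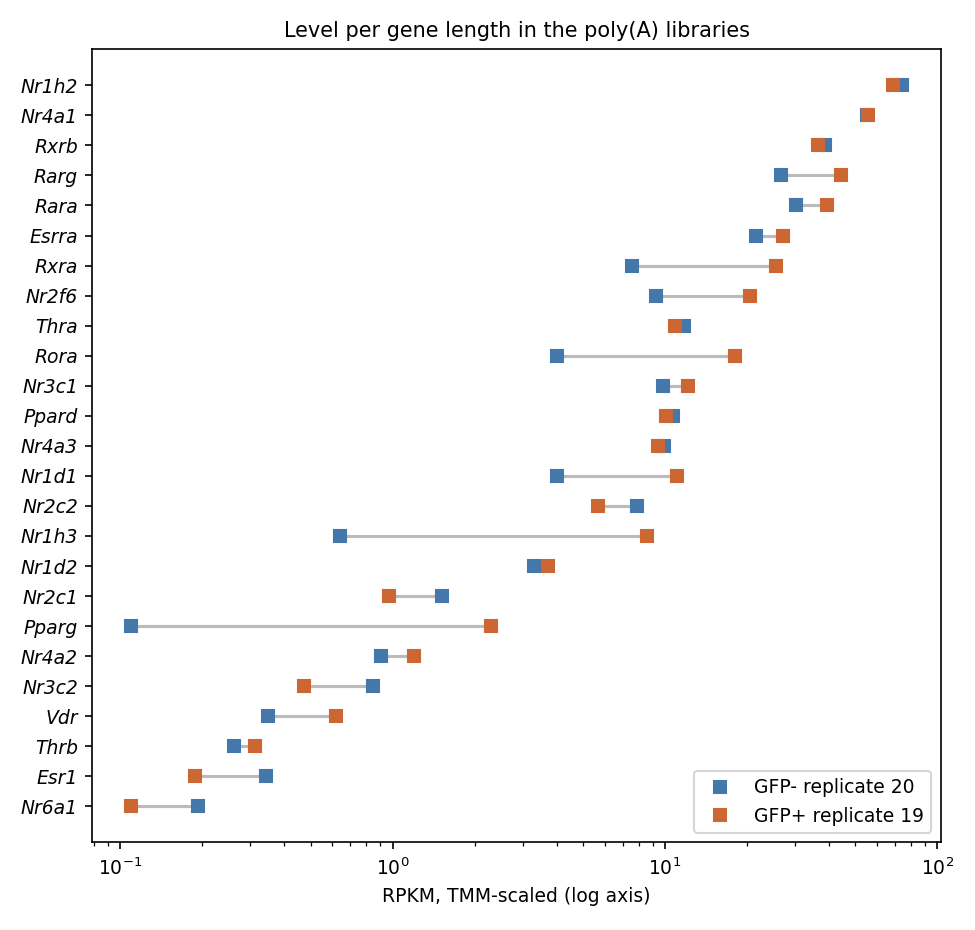
TMM-scaled RPKM on a log axis for the 25 receptor genes with at least 1 CPM in a poly(A) library, ordered by the mean of GFP- library 20 (blue) and GFP+ library 19 (orange), 1 library each. Nr1h2, Nr4a1 and Rxrb lead, and the widest gaps between the populations are those of Pparg, Nr1h3, Rora and Rxra.

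Of the 25 receptor genes that were not tested, the 5 on chromosomes 8 and 9 are described above, and 20 failed the filter. Apart from Nr4a3, those 19 had at most 68 counts (1.48 CPM, Esr1) in any library. Nr0b1, Nr0b2 and Nr2e1 had no count in any library. A count of 0 allows up to 3 counts, which is between 0.0610 and 0.380 CPM depending on the library and covers counting error only.

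Genes that work with the receptors were read from lists of coregulators, ligand enzymes and known targets. Among 17 tested coregulators none was higher and 2 were lower: Pprc1, a PGC-1 related coactivator (-0.83 ± 0.22, edgeR adjusted p = 0.0356), and Tbl1x, a subunit of the corepressor complex (-0.77 ± 0.21, edgeR adjusted p = 0.0432). Pprc1 lost its call without GFP- library 20 (0.259), GFP+ library 19 (0.270), GFP+ library 1 (0.133) or GFP+ library 4 (0.0800). Here and below, a fit without library 20 or 19 keeps a lone poly(A) library, which cannot inform the population effect beside the protocol covariate. Both fits thus rest on the single-cell protocol libraries and are nearly the same check. Tbl1x did so without GFP- library 20 (0.282) or 2 (0.0538) and without GFP+ library 19 (0.295), 1 (0.154) or 4 (0.117). The list's median was -0.25, and Crebbp, Gps2 and Ncoa3 had log2 fold changes from -0.47 to -0.45 without passing.

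Targets of LXR split into a few large differences and many small ones. Of 12 tested genes 3 were higher: Nr1h3 itself, Apoe, the lipoprotein of cholesterol export (5.09 ± 0.40), and Pltp, a phospholipid transfer protein (2.62 ± 0.39). Apoe went from 6.32, 8.04 and 4.69 CPM in GFP- libraries 20, 2 and 5 to 175, 330 and 159 CPM in GFP+ libraries 19, 1 and 4. The cholesterol exporters Abca1 (-0.20 ± 0.25) and Abcg1 (0.12 ± 0.30), Mylip (-0.22 ± 0.22), which degrades the LDL receptor, and Srebf1 (0.09 ± 0.28), the driver of fatty acid synthesis, did not pass. The median of the list was 0.10. Apoe, Pltp and Nr1h3 are also expressed in macrophages, whose markers rose in the same libraries, and the part of those markers was not tested.

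Among 10 tested fatty acid genes known as PPAR targets, Plin2, the lipid droplet coat protein, was higher, from 13.6, 15.4 and 23.6 CPM in GFP- libraries 20, 2 and 5 to 30.0, 44.8 and 43.9 CPM in GFP+ libraries 19, 1 and 4 (log2 fold change 1.18 ± 0.23, edgeR adjusted p = 0.0104). Its adjusted p was 0.0974 without GFP- library 20, 0.0987 without GFP+ library 19 and 0.0501 without GFP+ library 1. Cpt1a, the carnitine transferase of fatty acid oxidation, had 0.73 ± 0.21 (edgeR adjusted p = 0.0520) and Angptl4, a lipase inhibitor, 0.83 ± 0.28 (edgeR adjusted p = 0.0949). The lipid scavenger receptor Cd36 had 0.38 ± 0.58, and Fabp4, the fatty acid binding protein of fat cells and macrophages, lies on chromosome 3 and had 0 CPM in GFP- library 20 and 0.183 CPM in GFP+ library 19. The median over the 10 was 0.38.

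Among genes induced by glucocorticoids, those called went in both directions, and the median log2 fold change over the 13 tested was 0.54. Of 13 tested genes, Sgk1, a kinase (2.38 ± 0.23), Anxa1, an anti-inflammatory annexin (2.87 ± 0.40), and Fkbp5, a chaperone that holds the receptor inactive (1.69 ± 0.25), were higher. Tsc22d3, which encodes the glucocorticoid-induced leucine zipper, was lower (-0.89 ± 0.24, edgeR adjusted p = 0.0391), as was Pik3ip1, an inhibitor of PI3 kinase (-1.59 ± 0.22). Next by p came Dusp1 (1.83 ± 0.62) and Il7r (0.66 ± 0.23), which did not pass. Fkbp5 had 59.6, 42.5 and 40.6 CPM in GFP- libraries 20, 2 and 5 and 142, 175 and 136 CPM in GFP+ libraries 19, 1 and 4. Tsc22d3 had 84.8, 118 and 147 CPM in GFP- and 54.2, 57.1 and 74.0 CPM in GFP+ libraries of the same order, and lost its call without GFP- library 20 (0.192) or 5 (0.0521) and without GFP+ library 19 (0.200), 1 (0.149) or 4 (0.117). Of 8 tested chaperones of steroid receptors Fkbp5 alone was called. Hsp90aa1 had 0.12 ± 0.29 and Hsp90ab1 -0.25 ± 0.37.

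Clock genes were spread around the REV-ERB and ROR receptors in both directions. Of 13 tested genes 3 were higher and 2 lower. Hlf, a PAR domain transcription factor, stood at 1.35, 1.38 and 1.14 CPM in GFP- libraries 20, 2 and 5 and at 20.5, 7.93 and 6.38 CPM in GFP+ libraries 19, 1 and 4 (log2 fold change 3.09 ± 0.38, edgeR adjusted p = 0.00102). Nfil3, a repressor at PAR domain sites and a known REV-ERB target, rose by 1.80 ± 0.24 on the log2 scale. Arntl, the clock activator BMAL1, had 0.83 ± 0.23 (edgeR adjusted p = 0.0450), while the clock repressors Per2 (-1.47 ± 0.37, 0.0299) and Cry2 (-1.10 ± 0.25, 0.0193) were lower. Arntl lost its call with any library left out but GFP- library 2 (adjusted p up to 0.282), Per2 with any left out but GFP- library 5 (up to 0.292). Cry2 lost it without GFP- library 20 (0.152), GFP+ library 19 (0.142) or GFP+ library 1 (0.0894). Dbp (-0.98 ± 0.31), Cry1 (0.48 ± 0.20), Per1 (0.56 ± 0.33) and Clock (0.38 ± 0.26) did not pass.

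**Figure D4:**
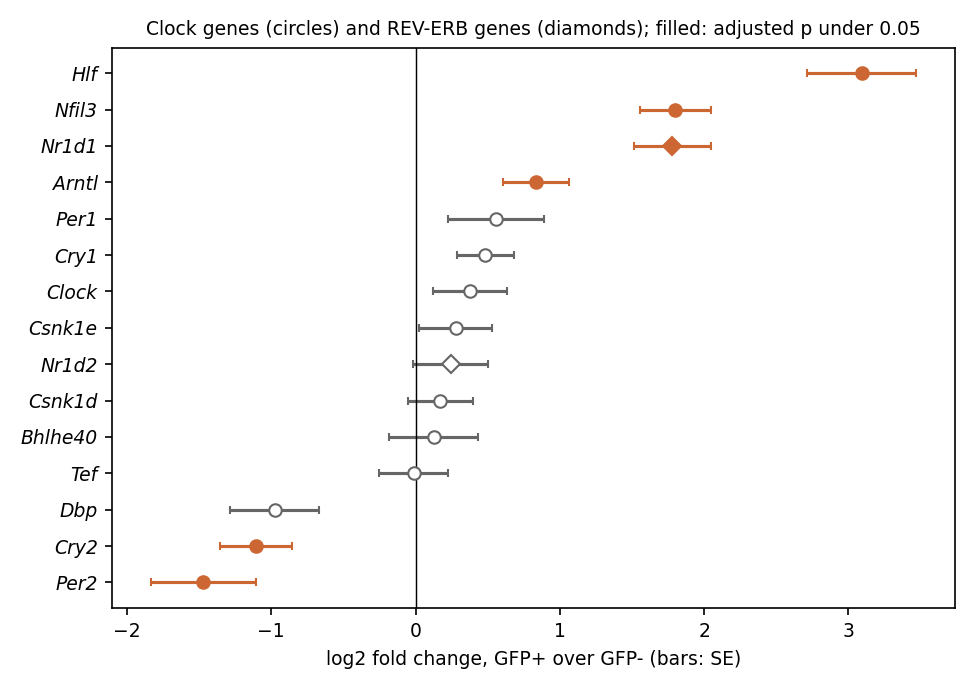
Fitted log2 fold change of GFP+ over GFP- Treg for the 13 tested clock genes (circles) and both REV-ERB genes (diamonds), with standard errors from 3 libraries per population and filled points for adjusted p under 0.05. Hlf, Nfil3, Nr1d1 and Arntl are filled on the higher side, Cry2 and Per2 on the lower side.

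Most genes in the lists of ligand enzymes were not tested, because their counts were low or they lie on chromosome 3 or 9. In the retinoid list 3 of 16 genes were tested, and Dhrs3, a retinal reductase induced by retinoic acid, was higher, from 11.7, 6.09 and 8.86 CPM in GFP- libraries 20, 2 and 5 to 24.4, 15.6 and 23.9 CPM in GFP+ libraries 19, 1 and 4 (log2 fold change 1.29 ± 0.27, edgeR adjusted p = 0.0140). Without GFP- library 20 its adjusted p was 0.0647, without GFP+ library 19 it was 0.0669 and without GFP+ library 4 it was 0.0520. Of the retinoid list, 6 genes lie on chromosome 3 or 9 and were measured in the poly(A) pair alone. Among them Stra6 had 17.3 CPM in GFP- library 20 and 1.79 CPM in GFP+ library 19, and the rest at most 0.587 CPM. In the list of vitamin D and oxysterol enzymes 3 of 12 genes were tested, and Hsd3b7, an enzyme of bile acid synthesis, was higher (1.45 ± 0.32, edgeR adjusted p = 0.0174). Its adjusted p was 0.163 without GFP- library 20, 0.168 without GFP+ library 19, 0.0544 without GFP+ library 1 and 0.0612 without GFP+ library 4. Hsd11b1, which regenerates active glucocorticoid, had 0.20 ± 0.42.

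Early genes of T cell receptor signalling, the class to which the Nr4a receptors belong, included 1 higher and 1 lower gene among 11 tested. Irf4, a factor of effector Treg, had 1.06 ± 0.23 (edgeR adjusted p = 0.0150), and Myc, a factor of cell growth, -1.86 ± 0.30 (0.00410). Irf4 lost its call without GFP- library 20 (0.0888), GFP+ library 19 (0.0827) or GFP+ library 1 (0.0601). The next genes by p, Fosb (1.09 ± 0.40), Tnfaip3 (0.69 ± 0.26) and Nfatc1 (0.50 ± 0.22), did not pass. Egr1 (0.38 ± 0.20), Egr2 (0.10 ± 0.23) and Cd69 (-0.27 ± 0.25) did not pass, and neither did Nr4a1 or Nr4a2. The median over the 11 was 0.38. Junb and Ier2, on chromosome 8, were measured in the poly(A) pair alone. Junb had 388 CPM in GFP- library 20 and 679 CPM in GFP+ library 19, and Ier2 had 115 and 107 CPM.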

How the data were processed

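RNA of sorted Treg was measured in 6 libraries, 3 per population. The values are whole read counts by Entrez gene, which the authors deposited as 1 table for each protocol. The submitters' processing notes name Subread, featureCounts, edgeR and build mm9. The sources used here do not give versions, strand setting or the handling of long genes. A log2 RPKM value for each gene and library was deposited too and served as an alternative only. Genes were kept by filterByExpr (10523 of 26286) and tested with edgeR 4.0.16 (TMM scaling, quasi-likelihood test, protocol as covariate, 3 residual degrees of freedom) in R 4.3.3, with Benjamini-Hochberg adjustment over all tested genes and a threshold of 0.05. The poly(A) libraries had TMM factors of 2.02 and 2.06, the others between 0.519 and 0.846. Standard errors were derived from the F statistic. CPM and RPKM were computed from the counts with TMM-scaled library sizes, and RPKM with the gene lengths of each table. Alternatives used DESeq2 1.42.0, limma 3.58.1, other scalings, filters and covariates, and each library left out. Genes of chromosomes 3, 8 and 9 without single-cell protocol counts stayed out of every fit. The edgeR test was also run on counts simulated from its own fitted model, which cannot show how well that model holds for these libraries. No pair of libraries matched within sampling noise (chi-square per degree of freedom at least 94.6). By the series' design text the samples are independent biologically, so the spread behind each p-value is that between samples.

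Receptors are described with values per library where they were called, had an unadjusted p under 0.05 or reached 10 CPM, and list genes by the smallest p; others were named after their values were seen. The family, the gene lists and the tests were chosen with earlier results of these data known. Chromosomes and overlaps come from RefSeq and GENCODE M21 (GRCm38), while the counts are on mm9. The only coordinates given are those of the RefSeq promoter windows, on GRCm38.p6. Promoters of 42 of the 46 genes were matched by symbol, and those of Hnf4g, Nr5a1, Nr3c1 and Thra were not.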

Additional observations from a re-analysis of the deposited data

How the results depend on the processing

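Pparg and Nr1h3 were called higher under all 15 alternatives, with log2 fold changes from 3.03 to 3.99 and from 3.29 to 3.83. Rxra and Nr1d1 were called under 14, and lost their calls without the protocol covariate (1.91, adjusted p = 0.511, and 1.61, adjusted p = 0.918), where 2 receptors were called higher. When neighbouring title numbers (19 with 20, 1 with 2, 4 with 5) formed a block, 7 were called higher, Rarg, Vdr and Nr3c1 among them, and without a filter beyond 1 count in total 5, with Vdr. Leaving out 1 library gave 4 higher receptors each time and 0 to 1 lower (Nr2c1 without GFP- library 5). The fits without library 20 or 19 nearly repeat the fit of the single-cell protocol libraries alone, so the 15 alternatives are not all separate checks. The lower receptor, Nr2c1, was also called (1 gene) with DESeq2 size factors, DESeq2, the deposited log2 RPKM values, the title number block and no filter beyond 1 count in total. The populations share no replicate numbers, so this block is the only pairing that was fitted, and no label states it.

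Over all genes, 1032 were higher and 387 lower. Without a filter these were 1595 and 814, with the title number block 1658 and 1263, without the protocol covariate 115 and 24, in the single-cell protocol libraries alone 567 and 144, and DESeq2 called 714 lower. Leaving out 1 library gave 569 to 1335 higher and 140 to 841 lower genes. Log2 fold changes of uncalled receptors turned sign for Thra (0.028, library totals alone) and Esrra (-0.095, single-cell protocol libraries alone). With 1 library left out they ran from -0.398 to 0.095 for Rxrb, from -0.088 to 0.210 for Esrra and from -0.451 to 0.104 for Nr4a1, and kept their sign in the other receptors followed. Library totals alone also ended the calls of Arntl, Cry2, Per2, Pprc1, Tbl1x and Tsc22d3 among the list genes. Without the protocol covariate Apoe and Sgk1 kept theirs, of the list genes followed through the alternatives. The cause was not tested. The number of expressed receptors was 24 at 0.5 CPM and 15 at 5 CPM, against 21. With library totals as the only scaling the median of all genes shifted by 0.09 on the log2 scale. Pparg had 3 to 10 counts in the GFP- libraries, which limits the precision of its fold change.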
